A study of Homo sapiens with 2 samples.

Results

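RAG1, RAG2 and DNTT are 3 of the 32738 genes in the count matrices of Nalm-6, a cell line from a human acute lymphoblastic leukemia of B-cell precursors. They were taken by symbol (RAG1, ENSG00000166349; RAG2, ENSG00000175097; DNTT, ENSG00000107447), and each symbol matched a single gene in both matrices. Nalm-6 cells carrying an inducible Tet-On construct for the ETV6-RUNX1 fusion were set against Nalm-6 cells carrying a Tet-On construct for luciferase (LUC control). Both cultures received 500 ng/ml doxycycline for 24 h, so the agent and the time were shared. Construct, modified line, culture and library differed together and cannot be told apart. Dead cells were depleted from both with beads before droplet capture on the 10X system, which tags poly-A transcripts with a barcode for the cell and a molecular identifier (UMI) for the molecule. There was 1 library per construct, so the cells of a library share their source and nothing was tested. The labels do not say whether each modified line was a clone or a pool.

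RAG1 and RAG2 are the subunits of the recombinase that cuts DNA at recombination signal sequences to start V(D)J recombination of immunoglobulin and T-cell receptor genes; RAG1 carries the catalytic site and RAG2 is its cofactor. DNTT encodes terminal deoxynucleotidyl transferase (TdT), a DNA polymerase that adds nucleotides without a template to the coding ends before they are joined. In normal B-cell development the genes are transcribed in progenitor cells, RAG transcription is reduced while large pre-B cells divide and returns in small pre-B cells, and RAG2 protein is degraded as cells enter S phase.

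Cells were kept with at least 1000 genes and no more than 10% mitochondrial UMIs, which left 2267 of 2503 barcodes with ETV6-RUNX1 and 1870 of 2203 in the LUC control. The kept cells held 43941536 UMIs with ETV6-RUNX1 and 42762188 UMIs in the LUC control, with medians of 19219 and 22535.5 UMIs per cell. Since LUC control cells were deeper, shares of cells with a UMI were compared after each cell was thinned at random to 8700 UMIs, which left out 224 shallower cells with ETV6-RUNX1 and 84 in the LUC control. All 7 B precursor markers found in the matrices were measured in these cells, whereas CD3D, CD3E, CD7, HBA1, HBB, PF4 and PPBP had 0 UMIs in both libraries. The 7 T and NK markers in the matrices, NKG7 foremost, summed to 4.71 CPM with ETV6-RUNX1 and 6.27 CPM in the LUC control. Of 5 myeloid markers 1 was measured, CST3, at 11.5 CPM with ETV6-RUNX1 and 10.1 CPM in the LUC control. LYZ had 67 UMIs with ETV6-RUNX1 and 79 in the LUC control, CD14 had 3 and 5, MPO had 5 and 2, and S100A9 had 0 in both. The libraries shared 16 barcode sequences, 7 of them among kept cells.

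The promoter windows of RAG2 and DNTT are shown because the fusion carries the DNA-binding part of RUNX1, E proteins regulate RAG genes in B-cell precursors and, in mouse, ETS-family factors bind the Dntt promoter. Each window runs from 250 bases before to 50 bases after the annotated start and was taken from RefSeq on GRCh38.p14, at chr11:36598187-36598486 on the minus strand for RAG2 and at chr10:96304184-96304483 on the plus strand for DNTT. Capitals mark matches, on either strand, to the RUNX core TGTGG, the E-box CAGNTG and the ETS core GGAAG, which do not overlap each other here. In GENCODE release 29 the RAG2 window's start is 1 of 5 annotated starts, the farthest lying 3481 bases downstream, and the 2 DNTT starts lie 25 and 38 bases upstream of that of its window. The 3 annotated RAG1 starts lie 356 to 57672 bases downstream of that of its RefSeq window, which is therefore not shown; it held 1 match to each motif.
RAG2: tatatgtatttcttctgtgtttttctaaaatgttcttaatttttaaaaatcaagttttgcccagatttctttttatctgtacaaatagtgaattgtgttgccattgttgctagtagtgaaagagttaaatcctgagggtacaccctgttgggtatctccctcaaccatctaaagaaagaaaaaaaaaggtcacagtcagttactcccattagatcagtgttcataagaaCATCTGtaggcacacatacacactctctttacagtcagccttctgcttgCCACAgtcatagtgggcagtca
DNTT: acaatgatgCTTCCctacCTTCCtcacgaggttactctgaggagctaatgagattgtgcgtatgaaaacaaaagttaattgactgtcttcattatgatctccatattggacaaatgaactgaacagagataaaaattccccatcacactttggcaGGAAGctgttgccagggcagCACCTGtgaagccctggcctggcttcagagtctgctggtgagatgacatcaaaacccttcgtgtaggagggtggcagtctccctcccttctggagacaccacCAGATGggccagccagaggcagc
The RAG2 window held 1 RUNX core match, at position 29 with the start as 1, which reads CCACA on the strand printed, 1 E-box match at -21 and 0 ETS core matches. The DNTT window held 0 RUNX core matches, 2 E-box matches at -75 and 28, and 3 ETS core matches at -241, -232 and -95. Among 35116 RefSeq promoter windows of this length, 51.4% held the RUNX core, 49.9% the E-box and 71.9% the ETS core, so a match is common. A match is a string of letters in the window and was not measured as binding.

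All 3 genes were at a higher level with ETV6-RUNX1 than in the LUC control, by the largest factor for RAG1. Levels are in CPM, a gene's UMIs scaled by the summed UMIs of kept cells, and brackets hold exact 95% intervals that cover counting error only. RAG1 had 1047 UMIs with ETV6-RUNX1 and 708 in the LUC control, or 23.8 CPM (22.4 to 25.3) against 16.6 CPM (15.4 to 17.8). The log2 ratio of ETV6-RUNX1 over LUC control was 0.53 (0.39 to 0.66), a 1.44-fold higher level with the fusion. For RAG2, 560 UMIs with ETV6-RUNX1 and 467 in the LUC control gave 12.7 CPM (11.7 to 13.8) against 10.9 CPM (9.95 to 12.0). Its log2 ratio was 0.22 (0.04 to 0.40), and the intervals of its levels in the libraries overlap; the ratio was 0.12 with the cell-cycle phases given equal weight and 0.34 from a second random thinning. DNTT, with 16354 UMIs with ETV6-RUNX1 and 13734 in the LUC control, was at 372 CPM (366 to 378) against 321 CPM (316 to 327). Its log2 ratio was 0.21 (0.18 to 0.25), an interval that is too narrow because DNTT varied between cells beyond counting.

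None of the 3 genes reached a 1.5-fold difference. Of 5954 measured genes, those that reached 10 CPM in either library, 11 (0.185%) were at least 1.5-fold higher with ETV6-RUNX1 and 39 (0.655%) at least 1.5-fold lower. The median log2 ratio of these genes was -0.04 and 36.2% of them were above 0. A ratio at or above that of RAG1 was seen in 22 measured genes (0.369%), against 231 (3.88%) for RAG2 and 252 (4.23%) for DNTT.

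The annotations of RAG1 and RAG2 overlap on opposite strands in GENCODE release 29. RAG2 also overlaps C11orf74 and DNTT overlaps AL136181.1, both on the opposite strand. The sources used here do not give whether counting used strand, and without it reads of overlapping genes cannot be told apart. C11orf74 itself had 42 UMIs with ETV6-RUNX1 and 18 in the LUC control. Fewer transcripts per cell and fewer expressing cells cannot be separated by a library sum, so the genes are described next by cell.

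RAG1 was detected in more cells with ETV6-RUNX1 at equal depth. A RAG1 UMI was found in 385 of 2043 thinned cells with ETV6-RUNX1, or 18.8% (17.2 to 20.6), against 231 of 1786 thinned LUC control cells, or 12.9% (11.4 to 14.6). Over 20 random thinnings the RAG1 share ranged from 16.5% to 19.2% with ETV6-RUNX1, against 11.9% to 14.0% in the LUC control, ranges that do not overlap. Without thinning the shares were 33.4% with ETV6-RUNX1 and 27.8% in the LUC control. For RAG2 the thinned shares were 10.7% (9.41 to 12.1) with ETV6-RUNX1, against 9.01% (7.73 to 10.4) in the LUC control, and their intervals overlap. Without thinning the RAG2 shares were 20.2% with ETV6-RUNX1 and 20.4% in the LUC control, so the order of these shares changes with depth. DNTT was found in 85.3% (83.7 to 86.8) of thinned cells with ETV6-RUNX1 and in 85.2% (83.4 to 86.8) of thinned LUC control cells. DNTT thus differed between the libraries in UMIs per cell, with a mean of 3.30 and a median of 3 with ETV6-RUNX1 against a mean of 2.92 and a median of 2 in the LUC control, and not detectably in the share of cells with a UMI.

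DNTT varied far more between cells than counting alone would give, RAG1 only a little more, and RAG2 by close to what counting gives. In thinned cells RAG1 was at 0 in 81.2% with ETV6-RUNX1 and 87.1% in the LUC control, where a Poisson distribution of the same mean gives 80.4% and 86.3%. For RAG2 the zeros were 89.3% with ETV6-RUNX1 and 91.0% in the LUC control, with 89.0% and 91.0% from the Poisson distribution. Zeros say little of a sparse gene's spread, and 2 or more RAG1 UMIs were found in 2.55% of cells with ETV6-RUNX1 and 1.57% of LUC control cells, above the 2.05% and 0.983% of the Poisson distribution. DNTT was at 0 in 14.7% of cells with ETV6-RUNX1 against 3.68% from the Poisson distribution, and in 14.8% of LUC control cells against 5.37%. At the other end, 4.80% of cells with ETV6-RUNX1 and 2.97% of LUC control cells held 10 or more DNTT UMIs, where the Poisson distribution gives 0.220% and 0.0913%. The variance over the mean of UMIs per cell was 2.93 with ETV6-RUNX1 and 2.49 in the LUC control for DNTT. Genes at 300 to 450 CPM had a median of 1.21 and a 95th percentile of 1.72 with ETV6-RUNX1, and 1.16 and 1.66 in the LUC control. For genes at 10 to 30 CPM the 95th percentiles were 1.12 with ETV6-RUNX1 and 1.11 in the LUC control, and RAG1 lay below the first at 1.09 and above the second at 1.13. RAG2, at 1.04 with ETV6-RUNX1 and 1.00 in the LUC control, lay near the median of such genes, 1.02 in each library. Over 20 random thinnings the median for RAG1 was 1.12 with ETV6-RUNX1 and 1.16 in the LUC control. For RAG2 the median was 1.05 in each library, with a highest value of 1.11 with ETV6-RUNX1 and 1.15 in the LUC control.

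**Figure D1:**
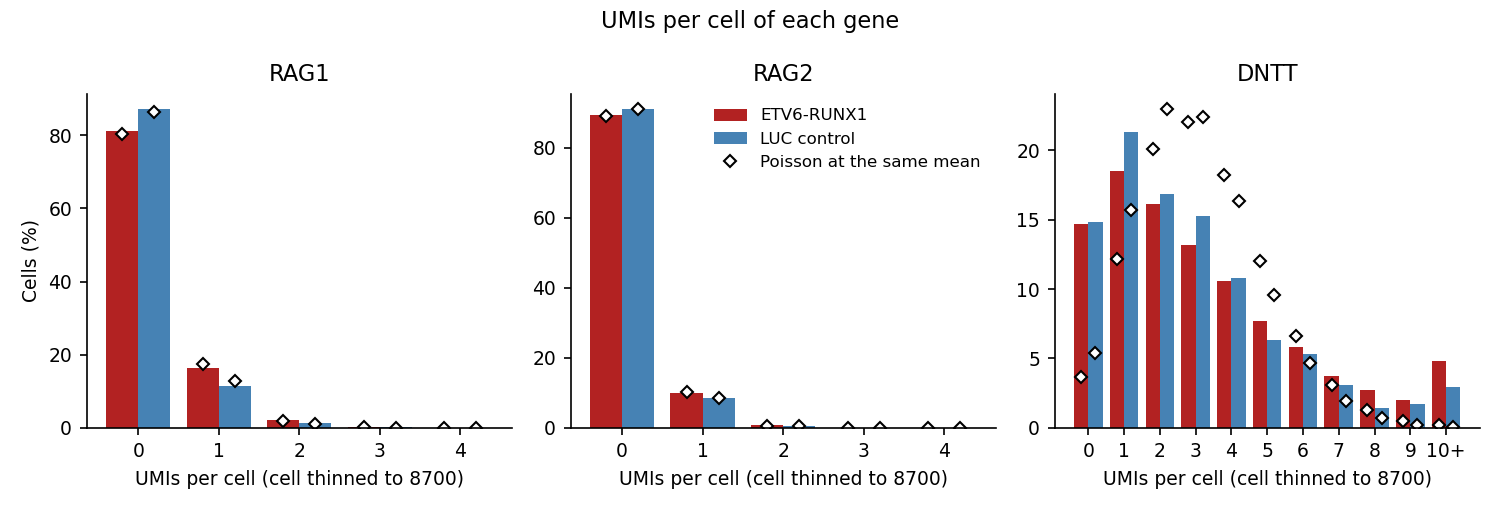
Percent of thinned cells (vertical axis) by number of UMIs of each gene (horizontal axis) for ETV6-RUNX1 and LUC control, with diamonds for a Poisson distribution of the same mean. RAG1 and RAG2 bars sit near the diamonds, whereas DNTT has 14.7% of cells with ETV6-RUNX1 and 14.8% of LUC control cells at 0, above the diamonds at 3.68% and 5.37%.

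Free RNA could not be measured here, since no cell type lacking these genes was identified. Barcodes with over 50% mitochondrial UMIs can hold RNA of their own cell, so their shares are a description and not a check on free RNA. A RAG1 UMI was found in 2 of 157 such barcodes with ETV6-RUNX1, or 1.27% (0.155 to 4.53), and in 0 of 205 in the LUC control, which allows a share of up to 1.46% by a limit of 3 counts and 1.78% by the exact interval. A RAG2 UMI was in 0.637% of them with ETV6-RUNX1 and 0.488% in the LUC control. The DNTT shares were 8.28% (4.48 to 13.7) with ETV6-RUNX1, against 6.83% (3.78 to 11.2) in the LUC control. These barcodes had medians of 842 UMIs with ETV6-RUNX1 and 919 UMIs in the LUC control, far below the thinned depth, so the shares are not at matched depth.

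Cells were grouped by depth into 8700 to below 15000, 15000 to below 22000, 22000 to below 30000, and 30000 or more UMIs. DNTT was at 443, 392, 334 and 332 CPM over these ranges with ETV6-RUNX1 and at 405, 359, 299 and 294 CPM in the LUC control, lower in deeper cells of both. The RAG1 log2 ratio of ETV6-RUNX1 over LUC control was 0.34, 0.48, 0.28 and 0.79. RAG1 was higher with ETV6-RUNX1 in all 4 ranges, and the interval included 0 only in the first (-0.11 to 0.79). DNTT ratios over the same ranges were 0.13, 0.13, 0.16 and 0.17, again above 0 in all 4. RAG2 ratios were 0.46, 0.11, 0.49 and -0.06, with an interval above 0 only in the range from 22000 (0.19 to 0.79). The part of cell depth in the ratios was not tested.

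At equal depth RAG1 and RAG2 transcripts were not found together beyond counting error in the thinning used throughout, and the size of the excess moved with the random thinning. In that thinning 47 cells with ETV6-RUNX1 held UMIs of both, against 41.3 expected from the separate shares, and 22 LUC control cells held both, against 20.8 expected. A RAG1 UMI was present in 21.5% (16.2 to 27.5) of cells with a RAG2 UMI and 18.5% (16.8 to 20.4) of cells without one in the ETV6-RUNX1 library, a difference of 2.93 percentage points (-2.64 to 9.22). In the LUC control library the shares were 13.7% (8.77 to 19.95) with and 12.9% (11.3 to 14.6) without a RAG2 UMI, a difference of 0.803 points (-4.39 to 7.29). Both differences have intervals that include 0, but with a second thinning the difference was 7.71 points (1.70 to 14.4) with ETV6-RUNX1, which leaves out 0, against -0.0820 points (-5.43 to 6.75) in the LUC control. Over 20 thinnings of the same cells it ranged from 0.486 to 9.21 points with ETV6-RUNX1, with a median of 4.996, and was above 0 in all 20. In the LUC control it ranged from -2.84 to 6.66 points, with a median of 3.24, and was above 0 in 15. The 20 thinnings redraw the same UMIs, so their agreement in sign is no repeat of the result. In unthinned counts the differences were 13.0 points with ETV6-RUNX1 and 9.31 points in the LUC control, larger than at equal depth in both libraries. All 3 transcripts were present in 33 of 2043 cells with ETV6-RUNX1, or 1.62%, where independence gives 35.2 cells, and in 20 of 1786 LUC control cells, or 1.12%, where it gives 17.7. With ETV6-RUNX1, 14 cells held RAG1 and RAG2 without DNTT, where independence gives 6.08, and 30 held RAG1 alone, where it gives 50.6. The 14 cells were the most found in any of the 20 thinnings, whose median was 4.5 against a median of 5.48 expected. Cells with RAG1 and RAG2, whether or not with DNTT, had a median of 46.5 with ETV6-RUNX1, against 36.4 expected. In the LUC control these medians were 24 against 19.5, and 3 against 3.04 without DNTT. The 33 cells with all 3, fewer than independence gives, thus belong to a thinning where unusually many of the cells with RAG1 and RAG2 lacked DNTT. The share of all ETV6-RUNX1 cells with DNTT in it, 85.3%, was near the median of the 20, 84.8%.

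In both libraries RAG1 was found most often in the cells with the most DNTT UMIs. In cells with 0, 1 to 2, 3 to 5, and 6 or more DNTT UMIs, a RAG1 UMI was present in 14.6%, 13.8%, 21.2% and 27.4% of ETV6-RUNX1 cells. The corresponding LUC control shares were 14.3%, 11.1%, 12.3% and 17.7%. The intervals of the ETV6-RUNX1 shares at 0 UMIs (10.8 to 19.1) and at 6 or more (23.1 to 32.2) do not overlap, whereas those of the LUC control (10.4 to 19.1 and 13.3 to 22.9) do. RAG2 shares over the same bins were 10.3%, 7.05%, 12.1% and 15.4% with ETV6-RUNX1 and 7.17%, 8.50%, 9.84% and 10.4% in the LUC control. Those RAG2 intervals overlap between 0 and 6 or more UMIs in each library, and the difference between libraries was not tested. Over 20 thinnings the RAG1 share in cells with 6 or more DNTT UMIs ranged from 21.7% to 27.6% with ETV6-RUNX1, against 12.4% to 20.8% in the LUC control. In cells with 0 DNTT UMIs it ranged from 7.69% to 15.0% with ETV6-RUNX1, against 7.75% to 14.3% in the LUC control.

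**Figure D2:**
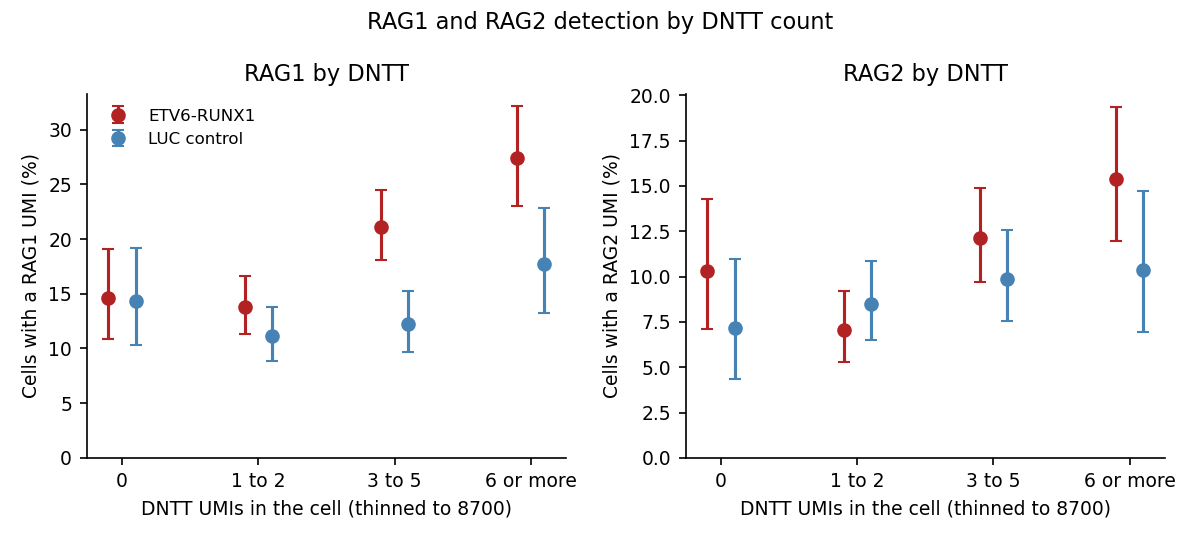
Percent of thinned cells with a RAG1 or RAG2 UMI (vertical axis, with exact 95% binomial intervals) by DNTT UMIs in the same cell (horizontal axis), for ETV6-RUNX1 and LUC control. RAG1 reached 27.4% of ETV6-RUNX1 cells with 6 or more DNTT UMIs, against 17.7% of LUC control cells.

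Across the 2043 ETV6-RUNX1 cells the Pearson correlation of log(1 + UMIs) of RAG1 with DNTT was 0.117, and over the 1786 LUC control cells 0.0395. It was 0.0672 with ETV6-RUNX1 and 0.0335 in the LUC control for RAG2 with DNTT, and 0.0262 and 0.0004 for RAG1 with RAG2. The points share 1 library and 1 depth within each value, and weak correlations in sparse counts are no finding. Among 5648 genes ordered by correlation with RAG1 in this 1 thinning, DNTT ranked 2 with ETV6-RUNX1 and 300 in the LUC control, and RAG2 ranked 825 and 2718. Over 20 thinnings RAG1 with DNTT had a median of 0.114 with ETV6-RUNX1, ranging from 0.0939 to 0.147. In the LUC control the median was 0.0527, ranging from 0.0024 to 0.0858. RAG1 with RAG2 had medians of 0.0395 with ETV6-RUNX1 and 0.0192 in the LUC control. The ranks were not repeated.

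Cell-cycle phases were called on thinned cells from scores of S and G2/M genes, none of which is RAG1, RAG2 or DNTT. G1 calls made up 14.0% of ETV6-RUNX1 cells and 10.6% of LUC control cells, S calls 36.2% and 40.2%, and G2/M calls 49.8% and 49.2%. RAG1 was at 21.3, 22.6 and 24.2 CPM in G1, S and G2/M cells with ETV6-RUNX1, and at 16.5, 15.3 and 17.1 CPM in the LUC control. RAG2 was at 12.4, 13.3 and 12.4 CPM with ETV6-RUNX1 and at 14.2, 9.83 and 11.0 CPM in the LUC control. DNTT was at 386, 386 and 352 CPM with ETV6-RUNX1 and at 345, 336 and 305 CPM in the LUC control. RAG1 and DNTT were higher with ETV6-RUNX1 in each phase, although the RAG1 log2 ratio in G1 cells, 0.36 (-0.11 to 0.85), has an interval that includes 0. In G1 cells the RAG2 ratio was -0.20 (-0.77 to 0.37).

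The G1 over G2/M log2 ratio of RAG1 was -0.19 (-0.50 to 0.12) with ETV6-RUNX1, against -0.05 (-0.47 to 0.35) in the LUC control. For RAG2 it was -0.0015 (-0.43 to 0.40) with ETV6-RUNX1, against 0.37 (-0.10 to 0.81) in the LUC control. For both recombinase genes the intervals include 0 in each library and are wide, so a phase difference within them was not detectable at this depth with all cells called. For DNTT the ratio was 0.13 (0.06 to 0.20) with ETV6-RUNX1, against 0.18 (0.09 to 0.26) in the LUC control, so G1 cells held slightly more. None of these ratios reached 1.5-fold. With cells within 0.05 of the score cut left out, the DNTT ratio was 0.28 with ETV6-RUNX1, against 0.39 in the LUC control, and the RAG2 ratio was 0.49 (0.01 to 0.94) with ETV6-RUNX1, against 0.76 (0.21 to 1.26) in the LUC control. Under that setting RAG2 was higher in G1 than in G2/M cells beyond counting error in both libraries, and past 1.5-fold in the LUC control. Among measured genes outside the phase lists, 2.14% were at least 1.5-fold higher and 8.05% lower in G1 than in G2/M cells with ETV6-RUNX1, and 1.78% higher and 7.96% lower in the LUC control. The S over G2/M log2 ratio of DNTT was 0.13 (0.08 to 0.18) with ETV6-RUNX1, against 0.14 (0.09 to 0.19) in the LUC control. For S over G2/M, 0.34% of genes were at least 1.5-fold higher and 1.07% lower with ETV6-RUNX1, and 0.437% and 0.942% in the LUC control. The RAG2 ratio of G1 over S cells in the LUC control was 0.53 (0.04 to 1.00), on 50 UMIs in G1, and in ETV6-RUNX1 cells it was -0.10 (-0.54 to 0.33). For G1 over S, 2.07% of genes were at least 1.5-fold higher and 7.58% lower with ETV6-RUNX1, and 1.81% and 7.38% in the LUC control. Median UMIs per cell differed between phases, at 16039, 18867 and 22400 in G1, S and G2/M with ETV6-RUNX1 and at 17537, 21515.5 and 25471 in the LUC control, and their part was not tested.

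**Figure D3:**
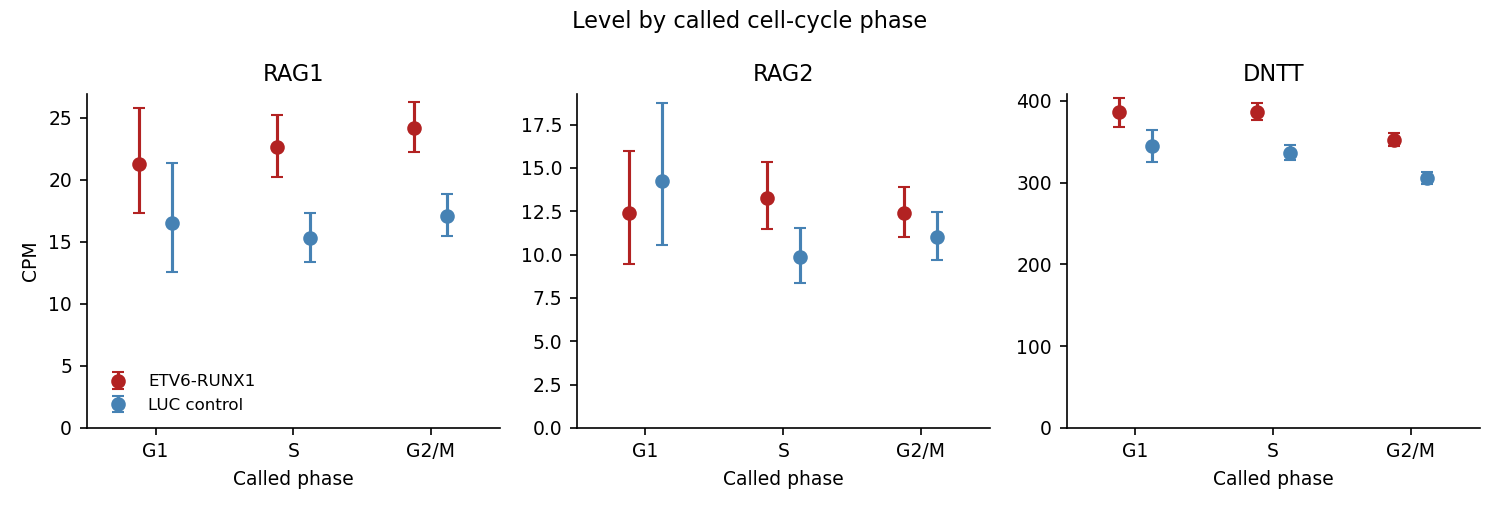
CPM of RAG1, RAG2 and DNTT (vertical axes, with exact 95% intervals of counting error) in cells called G1, S and G2/M (horizontal axis) for ETV6-RUNX1 and LUC control. RAG1 intervals overlap across phases in each library, and DNTT was lowest in G2/M cells, at 352 CPM with ETV6-RUNX1 and 305 CPM in the LUC control.

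Ordering the cells by score, in 5 equal groups, gave a finer view. DNTT from the lowest to the highest S-phase score was at 336, 322, 343, 383 and 465 CPM with ETV6-RUNX1 and at 309, 302, 272, 339 and 386 CPM in the LUC control. The cells with the highest S scores had the most DNTT of the 5 groups, with intervals of 450 to 480 CPM for ETV6-RUNX1 and 372 to 400 CPM for the LUC control that lie above those of the lowest scores (324 to 349 and 297 to 320 CPM). By G2/M score DNTT was at 385, 337, 357, 357 and 399 CPM with ETV6-RUNX1 and at 330, 313, 317, 319 and 321 CPM in the LUC control. The highest G2/M scores thus held as much DNTT as the lowest with ETV6-RUNX1, with overlapping intervals (386 to 411 and 371 to 400 CPM), although cells called G2/M had less than cells called G1. RAG1 by G2/M score was at 24.5, 18.4, 20.5, 26.3 and 26.3 CPM with ETV6-RUNX1 and at 17.5, 11.2, 14.2, 16.7 and 21.4 CPM in the LUC control, lowest in the second group of each library. RAG2 by S score was at 12.4, 11.4, 11.4, 12.3 and 16.4 CPM with ETV6-RUNX1 and at 11.7, 10.3, 9.46, 11.4 and 11.3 CPM in the LUC control. Across the 10 groups of the pair of scores, ETV6-RUNX1 cells were higher than LUC control cells for RAG1 and DNTT in all of them. For RAG2 they were higher in 5 of 5 groups by S score and 3 of 5 by G2/M score.

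**Figure D4:**
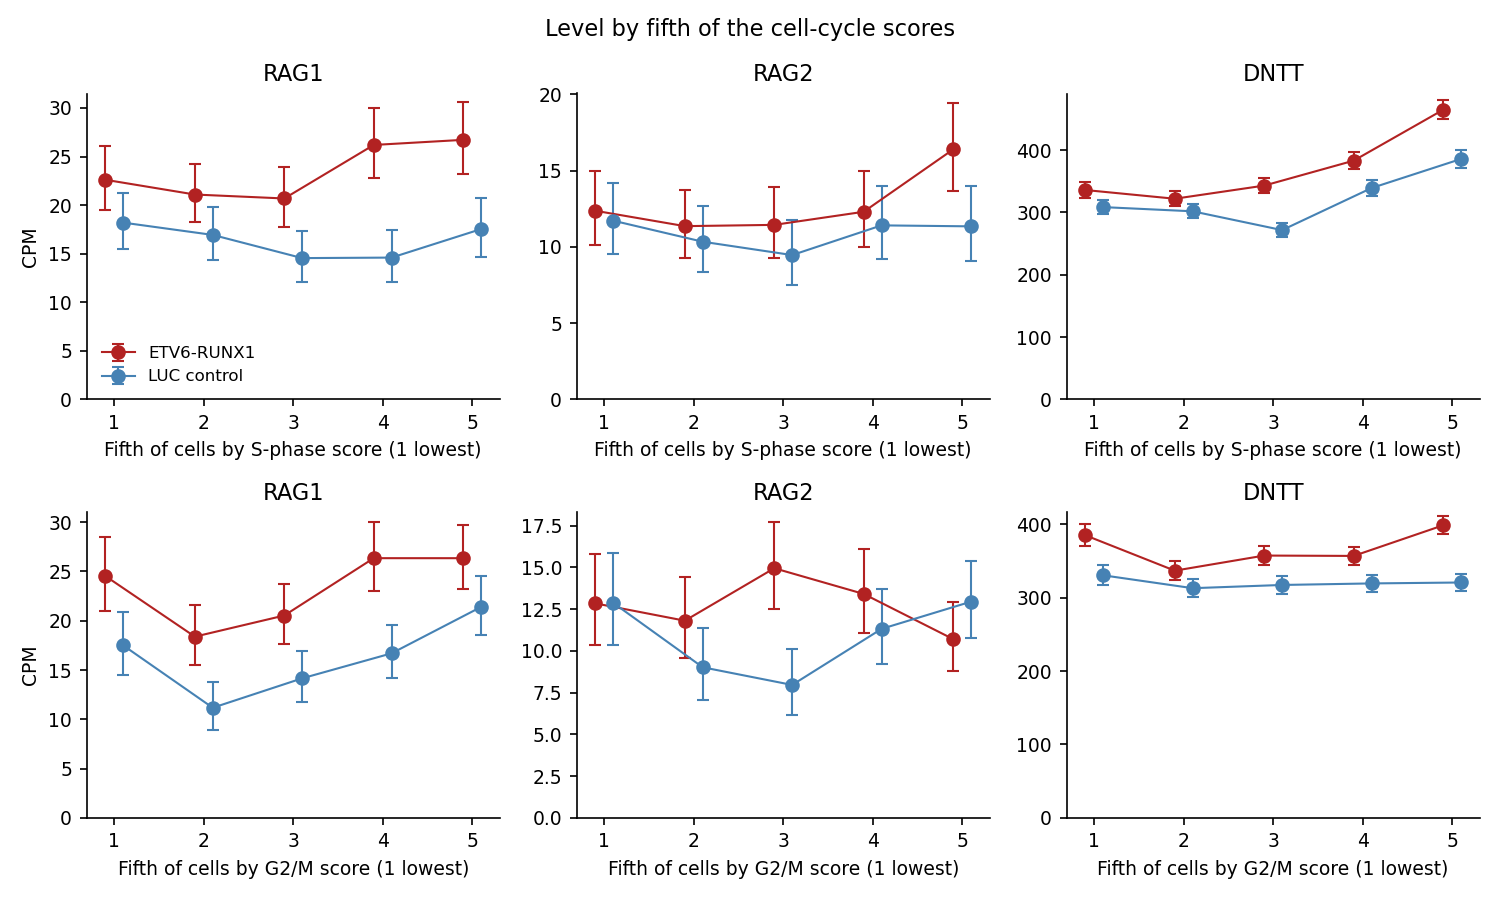
CPM of each gene (vertical axes, with exact 95% intervals) in 5 groups of cells from the lowest to the highest S-phase or G2/M score (horizontal axes), for ETV6-RUNX1 and LUC control. DNTT was at 465 CPM with ETV6-RUNX1 and 386 CPM in the LUC control in the cells with the highest S score.

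Other measured genes of the recombination pathway differed less between the libraries than RAG1. Of 15 genes of V(D)J recombination and end joining, 12 were measured, 3 with a log2 ratio above 0 and 9 below, with a median of -0.07 against -0.04 over all measured genes and 0 at 1.5-fold in either direction. C9orf142, which encodes the end-joining factor PAXX, had -0.16 (-0.22 to -0.10), ATM, the DNA break kinase, 0.14 (-0.02 to 0.29), and LIG4, the ligase that seals coding joints, -0.10 (-0.27 to 0.07). Among 25 regulators of RAG and DNTT transcription, 15 were measured, 8 above 0 and 7 below, with a median of 0.03, where 36.2% of all measured genes were above 0. Under TMM scaling 10 of these regulators were above 0, and 5 of the genes of V(D)J recombination and end joining. IRF4, a factor of light chain rearrangement, was at 26.2 CPM with ETV6-RUNX1 against 18.7 CPM in the LUC control, a log2 ratio of 0.48 (0.35 to 0.62). FOXO1, which acts on the RAG locus enhancer, had 24.3 CPM with ETV6-RUNX1 and 19.1 CPM in the LUC control, with a ratio of 0.35 (0.21 to 0.48) in log2. MYC, a growth regulator, had 104 CPM with ETV6-RUNX1 and 135 CPM in the LUC control, or -0.38 (-0.43 to -0.32). The RUNX1 gene had 33.8 CPM with ETV6-RUNX1 and 34.0 CPM in the LUC control, or -0.01 (-0.11 to 0.10), so its counts show no higher level in the library labelled ETV6-RUNX1. ETV6 had 10.1 CPM with ETV6-RUNX1 and 6.95 CPM in the LUC control, or 0.55 (0.33 to 0.76). The fusion has no row of its own, and whether the counted parts of ETV6 and RUNX1 are in the construct is not stated, so these values do not check the induction.

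The 9 measured genes of 10 that control RAG protein had log2 ratios below 0, with a median of -0.10 and 0 at 1.5-fold, where most measured genes were below 0; under each of the 3 other scalings CUL4A was above 0 and 8 were below. They included CDK2 at -0.17 (-0.33 to -0.02) and CCNA2, its cyclin A partner that marks RAG2 for degradation, at -0.13 (-0.22 to -0.04). DDB1, an adaptor of the ubiquitin ligase that turns over RAG1 in mouse, was at -0.12 (-0.23 to -0.01). Of 10 small pre-B and quiescence genes, 7 were measured, 4 above 0 and 3 below, with a median of 0.15 against -0.04 over all measured genes. ARPP21 was at 144 CPM with ETV6-RUNX1 against 101 CPM in the LUC control, a log2 ratio of 0.51 (0.45 to 0.56), BTG1 had 0.18 (0.13 to 0.24) and CXCR4 -0.33 (-0.38 to -0.28). Of 9 neighbours of the loci, BLNK, the B-cell linker, had 0.38 (0.28 to 0.47) and COMMD9 -0.16 (-0.25 to -0.07). Of 6 listed genes at immunoglobulin loci only IGLL5 has a row in these matrices, at -0.56 (-0.68 to -0.45). The B precursor marker IGLL1, the surrogate light chain lambda 5, was at 1126 CPM with ETV6-RUNX1 against 1861 CPM in the LUC control, and the library with more RAG1 thus had less IGLL1.

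**Figure D5:**
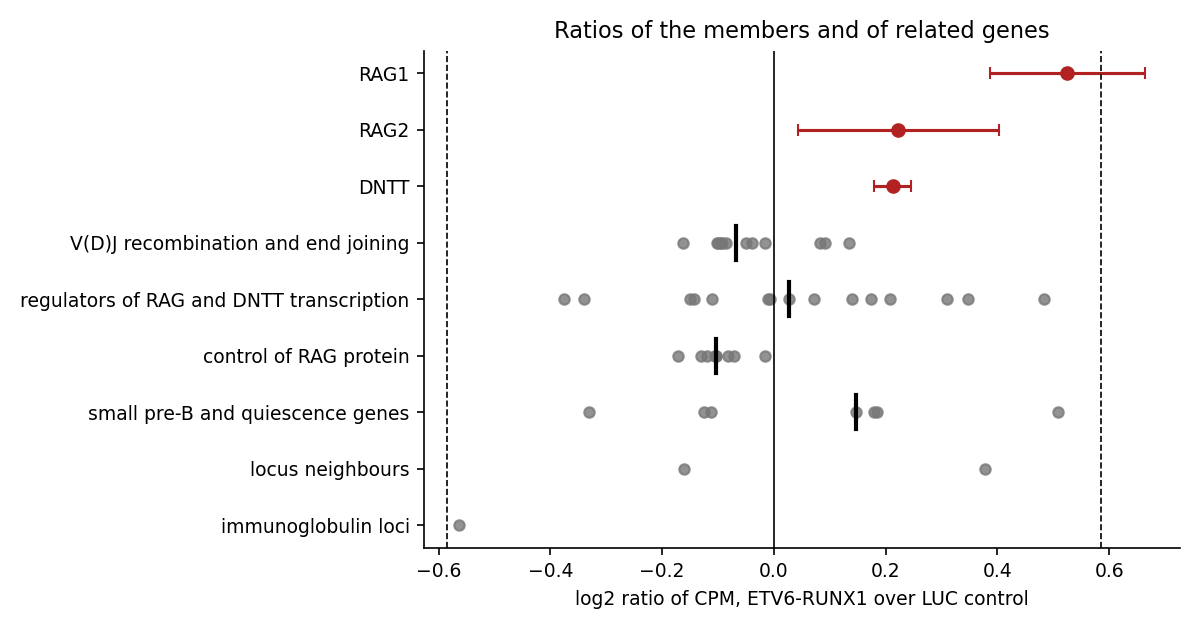
Log2 ratio of ETV6-RUNX1 over LUC control (horizontal axis) for RAG1, RAG2 and DNTT in red, with bars for exact 95% intervals, and for each measured gene of the 6 lists as a grey point, with a black tick at the median of lists of 5 or more measured genes and dashed lines at 1.5-fold. RAG1 at 0.53 lies to the right of every list point, the nearest being ARPP21 at 0.51 and IRF4 at 0.48, and no point lies beyond the dashed lines.

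The genes most like each member over cells were taken from 5648 genes at 10 CPM or more in both libraries, by the lower of their correlations in the libraries. For DNTT these were CD9, TCF4, H3F3A, SOCS2 and PDLIM1, with correlations of 0.33 with ETV6-RUNX1 and 0.28 in the LUC control for CD9, a tetraspanin. The lowest included RPL37A, a ribosomal protein gene, at -0.18 in each library. For RAG1 they were TLE4, SOCS2, TCF4, MALAT1 and SMOC2, with TCF4 at 0.130 with ETV6-RUNX1 and 0.0751 in the LUC control. For RAG2 they were CXCR4, XRCC6, TRAPPC6A, REXO2 and TMEM161A, with CXCR4 at 0.0748 with ETV6-RUNX1 and 0.0802 in the LUC control. SOCS2 and TCF4, an E protein, were among the 5 highest of both RAG1 and DNTT.

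Cells were also split by a UMI of such a gene, with levels as mean UMIs per thinned cell. RAG1 averaged 0.251 UMIs with and 0.133 without a TCF4 UMI in ETV6-RUNX1 cells, and 0.157 and 0.117 in LUC control cells, whose log2 ratio of 0.42 has an interval including 0 (-0.02 to 0.90). DNTT averaged 3.56 with and 2.64 without a TCF4 UMI in ETV6-RUNX1 cells, and 3.17 and 2.17 in LUC control cells. RAG2 averaged 0.134 with and 0.0922 without a CXCR4 UMI in ETV6-RUNX1 cells, and 0.111 and 0.0619 in LUC control cells. These genes were chosen for likeness in the same cells, so the splits describe the choice. DNTT was lower in cells with a UMI of CD79A, the B-cell receptor signalling chain, at 2.82 with and 3.86 without one in ETV6-RUNX1 cells and 2.74 and 3.27 in LUC control cells. In the ETV6-RUNX1 library the 1835 cells with an IGLL1 UMI averaged 0.210 RAG1 UMIs and 3.23 DNTT UMIs, against 0.284 and 3.91 in the 208 cells without one. Only 23 LUC control cells lacked an IGLL1 UMI, too few to set beside them.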

How the data were processed

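Droplet RNA sequencing was done on 1 library of induced ETV6-RUNX1 Nalm-6 cells and 1 of induced LUC control cells. The deposited values are raw UMI counts per gene and barcode, made by the authors with Cell Ranger 3.0.2 (build hg19), per the submitters' processing notes. The matrices carry no normalization. An hg19 annotation was not used here. GENCODE release 29 served for overlapping genes and RefSeq GRCh38.p14 for promoters.

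UMIs of kept cells were summed per library and expressed as CPM. Log2 ratios have exact 95% intervals for a ratio of Poisson counts and shares have Clopper-Pearson intervals. Both treat UMIs as independent, cover counting error alone and leave out the spread between cells, cultures and library preparations. A gene counted as measured where either library reached 10 CPM, which is 439 UMIs with ETV6-RUNX1 and 428 UMIs in the LUC control. With 1 library per construct, genes were counted by size at 1.5-fold and no p-value was computed. The computations were tested on simulated data.

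Phases were called with scanpy 1.11.5 on thinned cells, with 40 of 43 S genes and 53 of 54 G2/M genes found; a score above 0 set the call. Doublets were left in: Scrublet called 14 kept cells (0.618%) with ETV6-RUNX1 and 16 (0.856%) in the LUC control, and leaving them out was an alternative. Other alternatives were TMM scaling (edgeR 4.0.16), median-of-ratios scaling, totals without ribosomal protein and mitochondrial genes, thinned counts, cells or phases with equal weight, stricter or no cell filters, other phase calls and no floor.

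The members and the gene lists were chosen with earlier results of these data known. Named genes were the 3 members, up to 3 measured genes of each of 6 lists with the largest absolute log2 ratio, and for each member the 5 genes of highest and 3 of lowest likeness. ETV6, RUNX1, C11orf74, CUL4A, IGLL1 and CD79A were added after their values were seen, as the partners of the fusion, an overlapping gene, a gene whose direction turns with the scaling and B precursor markers. Thinned results were repeated over 20 random thinnings, which draw on the same UMIs and show only the spread of thinning.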

Additional observations from a re-analysis of the deposited data

Results flagged for a closer look

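Several within-library contrasts pointed in opposite directions in the libraries, and the difference between libraries was not tested. The RAG2 log2 ratio of G1 over S cells was -0.10 with ETV6-RUNX1 and 0.53 in the LUC control, and of G1 over G2/M cells -0.0015 with ETV6-RUNX1 and 0.37 in the LUC control. For S over G2/M cells RAG2 had 0.10 with ETV6-RUNX1 and -0.16 in the LUC control. RAG1 in G1 over S cells was at -0.089 with ETV6-RUNX1 and 0.11 in the LUC control, and DNTT at -0.0024 with ETV6-RUNX1 and 0.035 in the LUC control. Of these 10 ratios, the interval left out 0 only for RAG2 in G1 over S cells of the LUC control. The share of cells with a RAG1 UMI was 4.96 percentage points higher in cells with than without a DNTT UMI in the ETV6-RUNX1 library (0.0912 to 9.22), and the difference was -1.65 points in the LUC control (-6.73 to 2.72). Over 20 random thinnings this difference ranged from 4.05 to 12.1 points with ETV6-RUNX1, against -1.65 to 5.78 points in the LUC control, where it was above 0 in 14, so the libraries pointed in opposite directions in 6 of the 20.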

How the results depend on the processing

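The log2 ratios of ETV6-RUNX1 over LUC control stayed above 0 for all 3 genes under the 11 alternatives run for each, at 0.42 to 0.57 for RAG1, 0.12 to 0.34 for RAG2 and 0.15 to 0.26 for DNTT. DNTT was at 0.26 under TMM, median-of-ratios scaling and totals cleared of mitochondrial and ribosomal protein genes, at 0.17 in thinned cells and at 0.15 with ranges of cell depth given equal weight. That last alternative, a second thinning seed for these ratios and 20 repeated thinnings were chosen after seeing the data. Genes at least 1.5-fold higher numbered 17 under each of those 3 scalings, 21 in thinned cells and 1252 with no floor beyond 1 UMI in each library, where 1467 were lower; the floor removes genes of few counts by construction. RPL37A, at -0.01, was above 0 under those 3 scalings, at 0.032, 0.030 and 0.032. With cells within 0.05 of the score cut left out, the G1 over G2/M log2 ratio was 0.49 for RAG2 with ETV6-RUNX1 against 0.76 in the LUC control, and 0.28 for DNTT with ETV6-RUNX1 against 0.39 in the LUC control. DNTT had 0.23 with ETV6-RUNX1 and 0.27 in the LUC control with phases called on unthinned cells, and 0.22 and 0.27 from thinned counts. RAG1 ranged from -0.26 to 0.07 with ETV6-RUNX1 and from -0.07 to 0.24 in the LUC control. The difference in RAG1 share by RAG2 was 13.0 points with ETV6-RUNX1 and 9.31 points in the LUC control in unthinned counts; the other alternatives, phases taken singly included, ranged from 1.85 to 7.71 points with ETV6-RUNX1, the highest from a second thinning with an interval that leaves out 0, against -3.48 to 6.54 points in the LUC control. The cause of these shifts was not tested. No paired analysis was possible because each construct had 1 library. RAG1 and RAG2 rest on few UMIs per cell, which limits what can be seen within phases.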
